A study of Drosophila melanogaster with 4 samples.

Results

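Abrupt (Ab) is a *Drosophila* transcription factor with a BTB domain, through which it contacts other proteins, and zinc fingers, through which it contacts DNA. It is known for roles in dendrite shape, muscle attachment and border cell migration. Chromatin immunoprecipitation with sequencing (ChIP-Seq) lists the stretches of genome that were recovered with an antibody more often than from input DNA. Described here are the Ab peaks that were called in discs with *ab* overexpressed alone and that had no neighbour in the list from *scrib-*+*ab* discs. A peak counted as isolated where it was under 500 bp long and no *scrib-*+*ab* peak overlapped it or lay at a gap of 500 bp or less.

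Of 8881 peaks in the *ab* list, 2056 were isolated, which is 23.2% of the list (95% interval 22.3 to 24.0%). With the lists exchanged, 2698 of 10892 *scrib-*+*ab* peaks (24.8%, 24.0 to 25.6%) were under 500 bp and had no *ab* peak within 500 bp. The other *ab* peaks were 5252 that shared a base with a *scrib-*+*ab* peak, 1563 without overlap but within 500 bp of one, and 10 past 500 bp that were 500 bp long or longer. Intervals for shares are exact (Clopper-Pearson) and those for medians come from order statistics, and both cover counting error only. They treat peaks as independent, although isolated peaks often lay near each other, so they may be too narrow.

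Both lists came from mosaic eye/antennal discs, the larval epithelia that form the adult eye, antenna and head capsule. Discs were taken at 5 days after egg laying and carried GFP-marked MARCM clones made with *ey-FLP1* on *FRT82B* chromosomes, with *Tub-GAL4*, *Tub-GAL80* and *UAS-mCD8-GFP*. In the *ab* discs the clones expressed a *UAS-ab* transgene. In the *scrib-*+*ab* discs the clones expressed *ab* in the same way and were also homozygous for *scrib1*, a mutation in the apico-basal polarity gene *scribble*. Chromatin was cross-linked in 1.8% formaldehyde, sheared to about 500 bp and pulled down with a rabbit polyclonal antibody against Ab, using about 100 discs for each immunoprecipitation and 3 to 6 immunoprecipitations for each library. Each of the 2 genotypes was sequenced as 1 library of pooled immunoprecipitations, with its own input. There is therefore no replicate error, and no test between genotypes was possible. A disc pool also held unmarked cells without *ab* overexpression, and the share of clone tissue in each pool is not given in the sources used here. With this antibody the study also saw endogenous Ab in antennal disc, anterior eye disc and peripodial membrane. Unmarked cells there can thus also add Ab-bound DNA. Fewer clone cells and less Ab-bound DNA per cell cannot be told apart in such pools.

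Each peak is given by its chromosome arm and its first and last base on dm3. The deposited score was 1 for every peak, so a peak has a length and a position but no height. A region outside the *scrib-*+*ab* list was not called there, which is not the same as a region without Ab. The members were chosen by measured values, namely the length of each *ab* peak and its gap to the *scrib-*+*ab* list, so both are given below as description only. At the gap limit, the closest members were chr2R:14575616-14575676 (61 bp long) and chrX:11901096-11901178 (83 bp), each at 501 bp from a *scrib-*+*ab* peak. Just outside it were chrX:5619513-5619638 and chrX:17019364-17019423, each at 500 bp. At the length limit, the members of 484, 481 and 476 bp stood next to 505, 537 and 543 bp outside it.

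Isolated peaks were mostly short. Their median length was 104 bp (100 to 109 bp), with quartiles of 65 and 163 bp, and they ran from 9 to 484 bp. The remaining 6400 *ab* peaks under 500 bp had a median of 160 bp (157 to 164 bp) and quartiles of 99 and 249 bp. The isolated peaks were thus the shorter of the groups, although the ranges overlapped. They covered 257549 bp, or 14.9% of the 1731131 bp in all *ab* peaks.

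The share of *ab* peaks that was isolated fell with length in every class used. It was 48.7% under 50 bp (275 of 565 peaks), 34.7% from 50 to 99 bp, 25.9% from 100 to 149 bp and 21.7% from 150 to 199 bp. Of longer peaks, 14.8% were isolated from 200 to 299 bp, 9.62% from 300 to 399 bp and 4.47% from 400 to 499 bp (18 of 403). A longer interval also spans more positions at which a *scrib-*+*ab* peak can lie, and this cannot be told apart from other properties of longer peaks.

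The isolated *scrib-*+*ab* peaks were shorter again, with a median of 46 bp (45 to 48 bp) and quartiles of 37 and 71 bp. Peaks shorter than the reads, which the peak caller took as 40 bp, made up 6.37% of the isolated *ab* peaks (131), 1.63% of the remaining *ab* peaks under 500 bp (104) and 41.7% of the isolated *scrib-*+*ab* peaks. Of *scrib-*+*ab* peaks from 200 to 299 bp 2.62% were isolated, against 14.8% of *ab* peaks of that length, and from 400 to 499 bp 0 of 91 were (upper limit 3.97%). The lists differed in this way as a whole, since the remaining peaks under 500 bp had a median of 79 bp (78 to 81 bp) in the *scrib-*+*ab* list and 160 bp in the *ab* list.

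**Figure D1:**
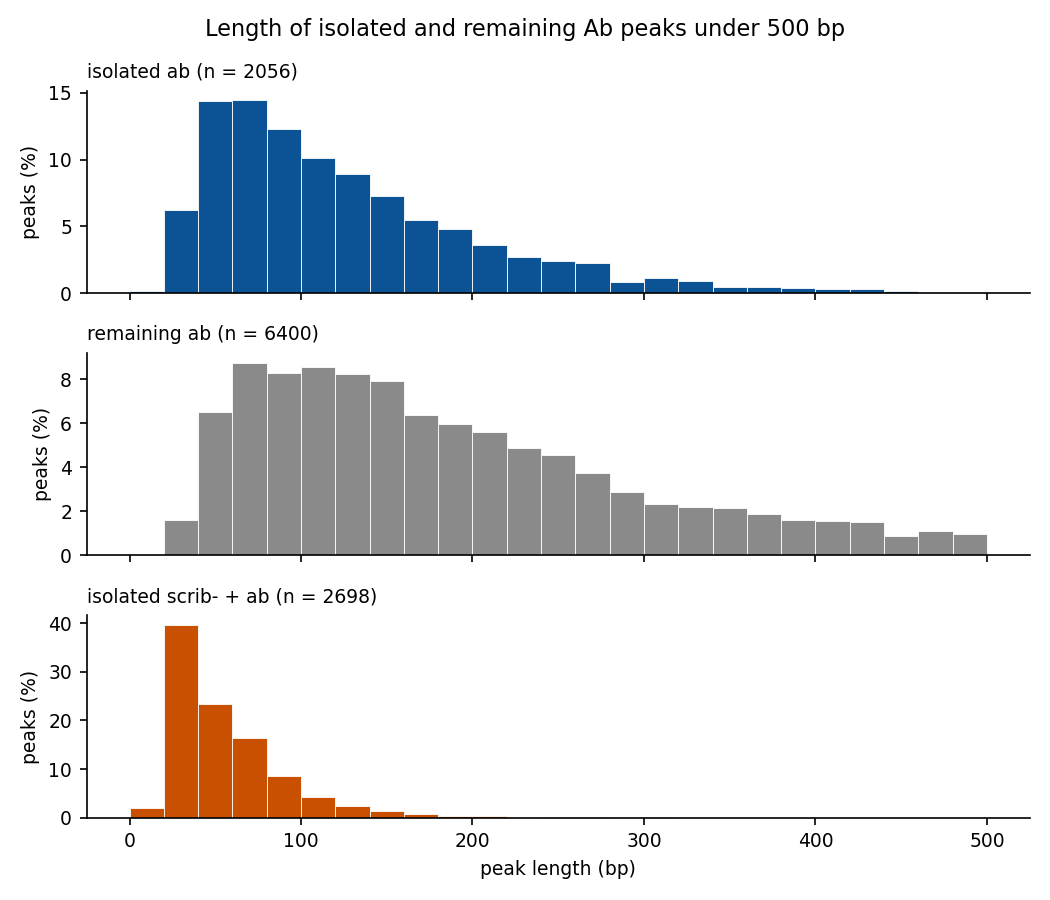
Distribution of peak length in bins of 20 bp, as the percentage of peaks in each set, for isolated *ab* peaks (top), remaining *ab* peaks under 500 bp (middle) and isolated *scrib-*+*ab* peaks (bottom). The medians are 104, 160 and 46 bp, and the vertical scales differ between the 3 panels.

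The longest members were spread over several arms and none lay in a gene panel. The longest, chr3L:9027496-9027979, was 484 bp long and had another *ab* peak at 61 bp and a *scrib-*+*ab* peak at 825 bp. The next were chr2R:14222297-14222777 (481 bp), chr3L:21245513-21245988 (476 bp), chrX:14964609-14965057 (449 bp) and chr3L:12620828-12621269 (442 bp). Of these 5, the peak at chr3L:12620828-12621269 was the only one far from both lists, at 11256 bp from the next *ab* peak and 11310 bp from the next *scrib-*+*ab* peak.

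Isolated peaks stood low in the deposited order. The sources used here do not say what the order within an arm stands for, but the median length of all *ab* peaks went from 453 bp in the top 10% of each arm's list to 61 bp in the bottom 10%. Isolated peaks made up 0.562% of the top 10% (5 of 890), 20.4% of the fifth of these 10 parts and 47.1% of the last (417 of 885). Their median place was 71.3% of the way down their arm's list (69.8 to 72.9%), against 45.1% for the remaining *ab* peaks under 500 bp, and 23.2% of them lay in the first 50% of a list. The exchanged lists gave a similar climb, from 0.55% in the first part to 46.8% in the last.

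**Figure D2:**
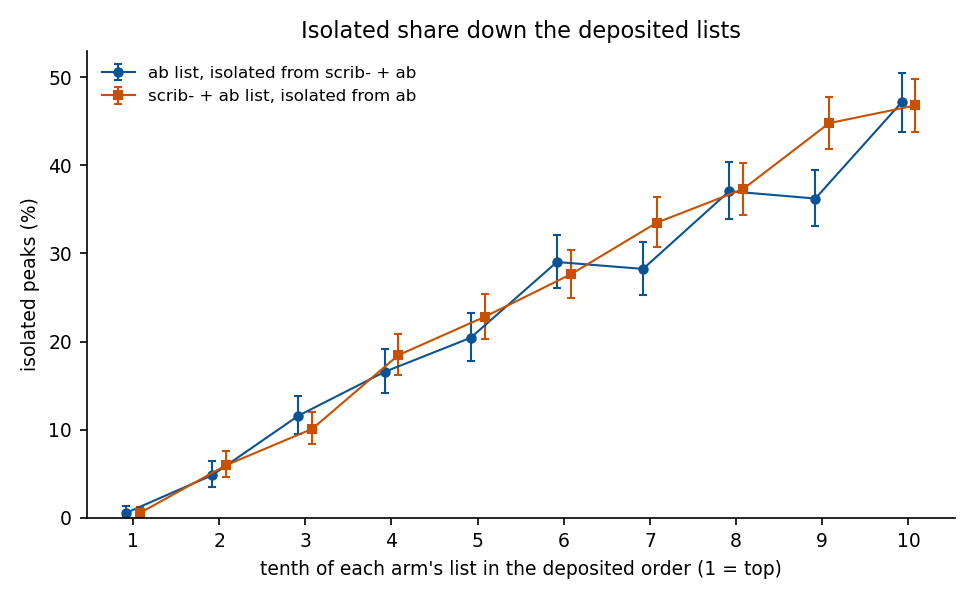
Percentage of peaks that were isolated in each of 10 equal parts of the deposited order, taken within each arm (part 1 at the top), for the *ab* list (circles) and for the *scrib-*+*ab* list with the lists exchanged (squares). Bars are exact 95% intervals. Both curves start under 1% and end near 47%.

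The highest-placed member of each arm was a long peak. On X it was chrX:673095-673530 (436 bp) at place 116 of 1778, and on 2L chr2L:2203159-2203564 (406 bp) at place 124 of 1548. On 2R it was the 481-bp peak named above, at place 135 of 1655. On 3L it was chr3L:16017353-16017758 (406 bp) at place 139 of 1888, and on 3R chr3R:3796185-3796619 (435 bp) at place 208 of 2012. Each of these 5 peaks had another *ab* peak within 730 bp.

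Isolated peaks lay on all 5 major arms, and arm 3R held fewer of them than its share of the list. On 3R 395 of 2012 *ab* peaks were isolated (19.6%, 17.9 to 21.4%). The other arms had 22.8% on 2R (377 of 1655), 23.8% on 2L (368 of 1548), 24.5% on X (436 of 1778) and 25.4% on 3L (480 of 1888). These 4 shares had intervals that overlapped each other, while the interval of 3R lay apart from those of 2L, 3L and X and overlapped that of 2R. As the intervals treat neighbouring peaks as independent, this is a description and no test of a difference between arms. Arm 3R carries both *FRT82B* and *scrib*, and whether either bears on its share was not tested.

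Split by length, the share on 3R was the lowest of the 5 arms in both classes, but most intervals then overlapped. Under 100 bp, 34.0% of the 3R peaks were isolated (interval up to 38.2%) against 36.4 to 42.1% on the other arms, and this interval overlapped all of theirs. From 100 to 499 bp 15.4% were (13.6 to 17.4%), against 18.6 to 20.2%, and this interval lay apart from that of 3L only. It was not confined to a stretch of the arm, since 8 of the 10 equal parts of 3R had a share below that of the whole list, as had 2 to 4 parts of the other arms. With the lists exchanged 3R stood at 25.9%, level with 2L (25.9%) and beside 22.8 to 24.6% on the rest. Arm 3R also had the most *scrib-*+*ab* peaks for each *ab* peak, at 1.36 against 1.14 to 1.25 elsewhere, and the part of this ratio in the lower share was not tested.

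**Figure D3:**
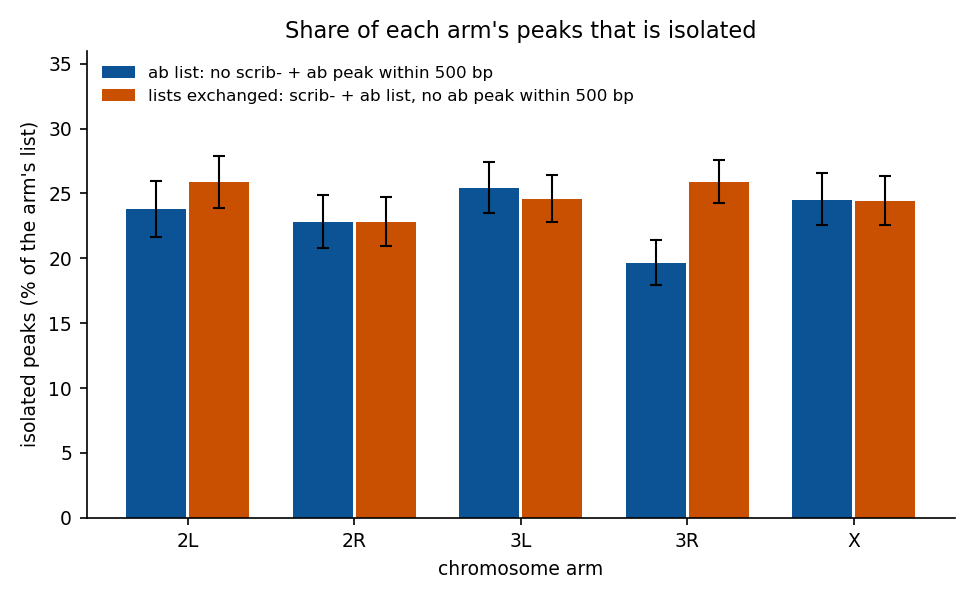
Isolated peaks as a percentage of each arm's list, for the *ab* list and for the lists exchanged, with exact 95% intervals. The *ab* bar of 3R stands at 19.6%, and the other *ab* bars between 22.8 and 25.4%.

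Within arms the members were spread widely. Of 1192 windows of 100 kb, 1051 held an *ab* peak and 792 (66.4%) held an isolated one. The share that was isolated was higher where *ab* peaks were sparse, at 34.9% in windows with 1 to 3 *ab* peaks (30.9 to 39.1%), 27.3% with 4 to 7, 23.2% with 8 to 11 and 20.4% with 12 or more (19.2 to 21.5%). A window with few *ab* peaks often also had few *scrib-*+*ab* peaks that could exclude a member. The rule may thus partly set this order, and its part was not tested. The richest window was chr2L:11000001-11100000 with 14 isolated peaks among 23 *ab* and 23 *scrib-*+*ab* peaks. Along X, the last of 10 equal parts of the span of *ab* peaks had 23 isolated of 53 *ab* peaks (43.4%, 29.8 to 57.7%), the highest of the 50 arm parts.

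Isolated peaks lay farther from other *ab* peaks than the remaining ones did, which the rule partly sets. The median gap to the next *ab* peak was 1390 bp (1232 to 1600 bp), with quartiles of 289 and 5980 bp, against 259 bp (245 to 271 bp) and quartiles of 83 and 1258 bp for the remaining peaks under 500 bp. Another *ab* peak lay within 500 bp of 31.5% of the isolated and 64.1% of the remaining peaks. Within 5000 bp the shares were 71.8% and 86.1%, beside 83.2% of all *ab* peaks. Of the 8881 *ab* peaks, 5252 shared a base with a *scrib-*+*ab* peak, and a member could have no such peak within 500 bp. Many close *ab* neighbours were thus excluded by the choice of members, and how much of the contrast remains beyond this was not tested. No isolated peak had another *ab* peak closer than 41 bp, and the peak caller joined intervals at gaps of up to 40 bp.

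The distance to the *scrib-*+*ab* list, which the rule set to more than 500 bp, had a median of 3274.5 bp (3010 to 3546 bp) and reached 177697 bp. A *scrib-*+*ab* peak lay within 1000 bp of 21.4% of the members and within 5000 bp of 61.4%. For 72.2% of the members the nearest peak of any kind was another *ab* peak, which the lower limit on the other distance partly sets. The members farthest from the *scrib-*+*ab* list were chr3R:23815034-23815127 (94 bp) at 177697 bp and chr2L:16049779-16049853 (75 bp) at 174019 bp. They were followed by chr3R:13057518-13057713 at 112921 bp, chr3L:22610072-22610209 (138 bp) at 107281 bp and chrX:17903013-17903175 (163 bp) at 91819 bp, the last within the span of *Sh*, a voltage-gated potassium channel gene. All 5 were also at least 72573 bp from any other *ab* peak.

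**Figure D4:**
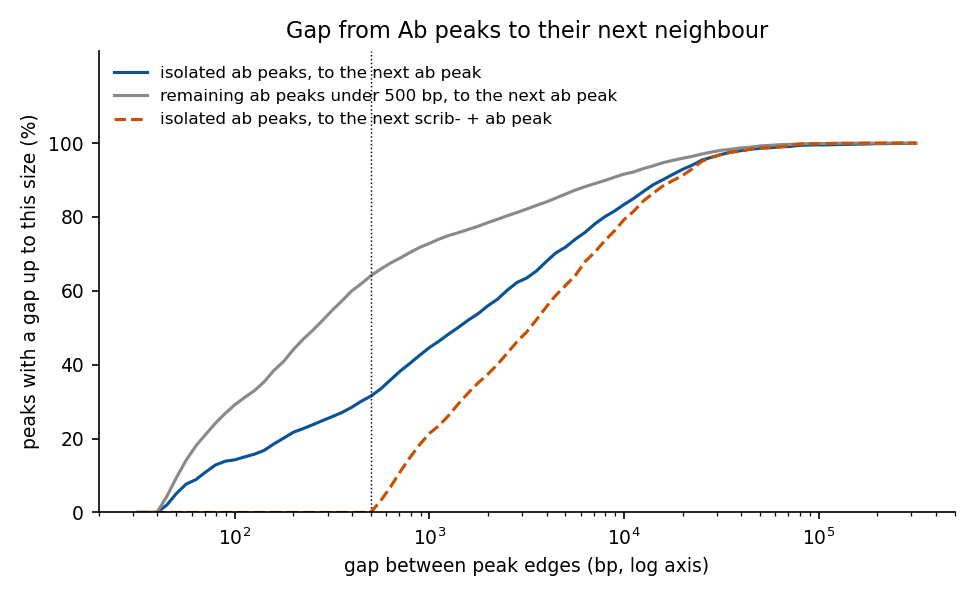
Cumulative percentage of peaks by the gap between peak edges (log axis), for isolated and remaining *ab* peaks to the next *ab* peak and for isolated *ab* peaks to the next *scrib-*+*ab* peak. The dotted line marks the limit of 500 bp. At that gap 31.5% of the isolated and 64.1% of the remaining peaks already had an *ab* neighbour, a contrast that the rule partly sets.

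A lone position and a short length did not go together among the members. Where the next *ab* peak lay within 500 bp, 13.6% of *ab* peaks under 500 bp were isolated, and beyond that the share was 35.4 to 40.4% in each class of gap up to more than 10 kb. The rule partly sets the low share within 500 bp as well. The median length of the isolated peaks was 99 to 108 bp in all of these classes of gap. Of the 648 members with an *ab* neighbour within 500 bp, 50.6% had a neighbour longer than themselves.

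Isolated peaks often lay near each other. With a run defined as at least 2 isolated peaks at gaps of 5000 bp or less, 948 members (46.1%, 43.9 to 48.3%) fell into 377 runs and the other members stood alone. Most runs were small, with 254 of 2 peaks, 81 of 3, 27 of 4, 7 of 5, 3 of 6, 4 of 7 and 1 of 8. The median span was 1129 bp, and 312 runs had no *scrib-*+*ab* peak inside their span. In the exchanged lists 49.0% of isolated peaks lay in runs, and 81.5% of the remaining *ab* peaks lay in runs of their own.

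For 49.2% of the members the nearest *ab* peak was itself isolated, beside 19.7% of all *ab* peaks. Neighbours share the same surroundings in the *scrib-*+*ab* list, so the rule itself makes them alike and nothing is read from this share. In the position-sorted list 699 members had no isolated neighbour on either side, and the longest unbroken stretch held 10. The share in runs moved with the gap allowed, to 36.8% at 2000 bp and 56.7% at 10000 bp. It fell further, to 24.5%, when *ab* peaks within 500 bp were joined first, and to 18.6% with only the longer 50% of the *ab* list eligible.

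The run with the most members lay upstream of *Blimp-1*, which encodes an ecdysone-inducible zinc finger repressor. It held 8 isolated peaks in 14445 bp at chr3L:5609628-5624072, together with 2 other *ab* peaks and 1 *scrib-*+*ab* peak. Another 4 runs had 7 isolated peaks each. The shortest of these spanned 4972 bp at chr2R:2431793-2436764, the next 7616 bp at chr3R:914417-922032 and 7721 bp at chrX:1858164-1865884, and none of these 3 had another peak of either list inside. The fourth spanned 9545 bp at chr3L:16008824-16018368 and also held 2 other *ab* peaks and 1 *scrib-*+*ab* peak. Lengths inside the runs were mixed, for example from 42 to 383 bp at *Blimp-1* and from 42 to 388 bp on 2R.

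Gene models were at hand for 70 genes drawn in browser panels, which were picked as examples and are no sample of the genome. The study describes them as selected from classes of deregulated genes with an Ab peak in the *scrib-*+*ab* discs. A *scrib-*+*ab* peak was thus close to a condition of entry. The isolated share and the counts of *scrib-*+*ab* peaks at these genes depend in part on that choice. A gene was said to hold a peak that touched the region from 500 bp upstream of a start site to the end of the gene. In these panels 84 of 466 *ab* peaks were isolated, or 18% (14.6 to 21.8%), against 23.2% of the whole list. By this count 31 genes held 63 isolated peaks. Of these, 10 touched a promoter region, whether or not they also touched an exon, 2 touched an exon but no promoter region, and 51 touched only introns. Among the 327 remaining *ab* peaks that the 70 genes held, 20.2% touched a promoter region (16.0 to 24.9%) and 71.9% only introns (66.7 to 76.7%), against 15.9% (7.88 to 27.3%) and 81.0% (69.1 to 89.8%) of the isolated ones. Whether these places differ was not tested. The median length of the 63 isolated peaks was 133 bp (95 to 143 bp).

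Most genes with an isolated peak also held peaks of the other list. Of the 31 genes, 25 held a *scrib-*+*ab* peak, and together the 31 held 246 *ab* and 301 *scrib-*+*ab* peaks. An isolated peak was thus usually 1 of several Ab peaks in these genes, which the choice of panels partly sets. At 10 genes every *ab* peak held was isolated, and at 6 of these (*al*, *cdc2c*, *danr*, *dom*, *E(var)3-9* and *toe*) no *scrib-*+*ab* peak was held either. These 6 stand outside the study's description of the panels, and the deposited lists were followed here. For *dom* and *E(var)3-9* the study's own text reports Ab peaks in the *ab* sample only, as the lists do.

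**Figure D5:**
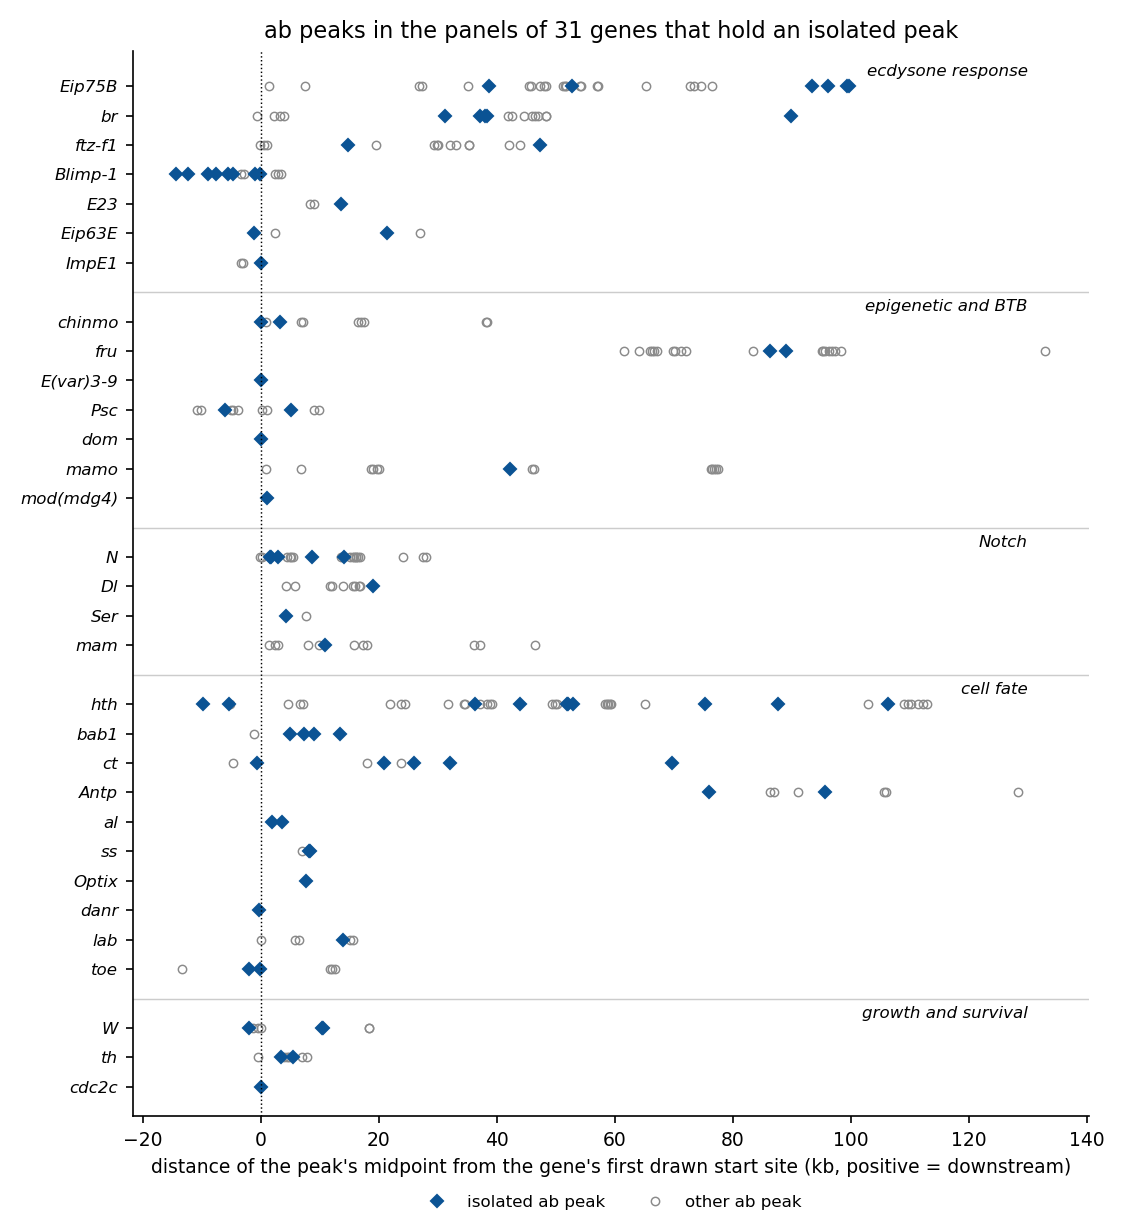
Position of every *ab* peak drawn within the panels of the 31 genes that hold an isolated peak, in kb from each gene's first drawn start site (positive downstream). Diamonds are isolated peaks and open circles other *ab* peaks. *Blimp-1* has 7 isolated peaks upstream of its promoter region, and *bab1* has isolated peaks only within the gene. In *hth*, *Eip75B* and *N* both kinds lie within the gene, partly in blocks of the same kind.

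Ecdysone is the steroid that drives moulting and metamorphosis, and its receptor switches on early genes that then control later ones. Of 11 genes of this response with panels, 7 held 16 isolated peaks. Of the *ab* peaks in the 11 panels 28.0% were isolated (26 of 93, 19.1 to 38.2%), beside 18% over all panels. The share of the whole *ab* list, 23.2%, lies inside this interval. The panel of *Blimp-1* alone gave 8 of the 26, 7 of them outside the gene, and without it the share was 22.5% (18 of 80, 13.9 to 33.2%). *Eip75B*, which encodes an early nuclear receptor, held 6 isolated among 28 *ab* and 34 *scrib-*+*ab* peaks. Of these, 4 lay close together between chr3L:17958004-17958220 and chr3L:17964315-17964533, at 16771 to 23084 bp from any *scrib-*+*ab* peak, and the other 2 (53 and 143 bp long) lay at 1017 and 3423 bp. The 4 thus marked a stretch of the gene in which the *scrib-*+*ab* list had no peak.

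*br*, the BTB-zinc finger early gene *broad*, held 4 isolated among 16 *ab* peaks. They included chrX:1506157-1506384 (228 bp) and chrX:1507254-1507636 (383 bp), each in the promoter region of an internal start site, at 2235 and 983 bp from a *scrib-*+*ab* peak. *ftz-f1*, a nuclear receptor gene, held 2 of 15 (134 and 137 bp, in introns). *Blimp-1* held 1 in its promoter region, chr3L:5623749-5624072 (324 bp), while the 7 others of its run lay farther upstream than 500 bp and so outside the gene by this count.

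Single isolated peaks lay in introns of *E23*, an ecdysone-induced ABC transporter gene (99 bp, 1 of 3 *ab* peaks), and *Eip63E*, a cyclin-dependent kinase gene (284 bp, 1 of 3). *ImpE1*, an ecdysone-inducible gene of imaginal discs, held 1 *ab* peak, which was isolated, at chr3L:8365476-8365618 (143 bp) by the start site. The gene also held 1 *scrib-*+*ab* peak. Its panel had 3 *ab* peaks, 1 of them isolated, and 4 *scrib-*+*ab* peaks. The panel of *Hr39* had 1 isolated peak outside the gene. No isolated peak lay in the panels of *Eip63F-1*, *ImpE3* and *ImpL3*.

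In the group of chromatin regulators with the BTB genes *chinmo*, *fru*, *lola*, *mamo*, *mod(mdg4)*, *psq* and *Trl*, 7 of 15 genes held 9 isolated peaks. Of the *ab* peaks in these panels 7.09% were isolated (10 of 141, 3.45 to 12.7%), beside 18% over all panels and 23.2% of the whole list. The panels of *psq* (26 *ab* peaks), *skd* (17) and *lola* (16) gave many of the 141 and no isolated peak. *lola* and *psq* lie in the same window of 100 kb. The share thus rests in good part on a few panels. Other panels gave the isolated peaks, for example *fru* with 2 of 21. The share of this group does not describe BTB genes in general, since *br* and *bab1*, which also encode BTB proteins and were grouped elsewhere, had 5 of 17 and 4 of 5 *ab* peaks in their panels isolated. *chinmo*, a BTB-zinc finger gene of neuronal timing, held 2 of 10 *ab* peaks, with 22 *scrib-*+*ab* peaks in the same gene. One was in the promoter region, chr2L:1651222-1651423 (202 bp), at 861 bp from a *scrib-*+*ab* peak. *fru*, the BTB-zinc finger gene of sexual behaviour, held 2 of 20, chr3R:14282273-14282402 and chr3R:14284931-14285066 (130 and 136 bp), both intronic.

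*Psc*, a Polycomb group gene, held 1 of 5 (367 bp, intronic), and *mamo*, a BTB-zinc finger gene of the germline, 1 of 14 (70 bp, intronic). The only *ab* peak of *mod(mdg4)*, a BTB gene of chromatin insulators, was isolated (243 bp, intronic), although the gene held 3 *scrib-*+*ab* peaks. *dom*, which encodes a chromatin remodelling ATPase, had a single isolated peak at its promoter, chr2R:17210828-17211000 (173 bp), at 24482 bp from the *scrib-*+*ab* list. The panel of *dom* draws this bar under the other sample's track. The study's text places *dom* among genes with Ab peaks in the *ab* sample only, and the deposited lists, which have it so, were followed here. *E(var)3-9*, a modifier of position-effect variegation, had a single peak of 39 bp in an exon at 12723 bp from the *scrib-*+*ab* list. No isolated peak lay in the panels of *lola*, *Pc*, *Pcl*, *ph-d*, *ph-p*, *psq*, *skd* and *Trl*.

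In the Notch pathway a membrane receptor is cleaved on contact with a ligand, and its inner part acts with coactivators in the nucleus. Of 9 genes, 4 held 8 isolated peaks, all intronic, and 14.5% of the *ab* peaks in these panels were isolated (6.495 to 26.7%). The receptor gene *N* held 5 of 22 *ab* peaks. A close pair, chrX:3030425-3030575 and chrX:3030618-3030779 (151 and 162 bp), lay 42 bp apart in an intron, with the nearest *scrib-*+*ab* peak at 721 bp. The other 3 were 69, 29 and 51 bp long, and all 5 lay within 2462 bp of a *scrib-*+*ab* peak. The ligand genes *Dl* and *Ser* held 1 of 10 (69 bp) and 1 of 2 (110 bp), and the coactivator gene *mam* 1 of 12 (91 bp). The target genes *HLHm3*, *HLHmbeta*, *m2* and *malpha*, and *Su(H)*, which encodes the DNA-binding partner of the receptor, held none.

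Genes of disc patterning and cell fate, the group with the most panels, held 25 isolated peaks in 10 of 22 genes. Of the *ab* peaks in these panels 27.5% were isolated (33 of 120, 19.7 to 36.4%), close to the share at ecdysone genes and beside 18% over all panels. The share of the whole *ab* list, 23.2%, lies inside this interval too. *hth*, a homeobox gene of the antenna and the undifferentiated eye field, held 8 of 37 *ab* peaks, beside 42 *scrib-*+*ab* peaks. These 8 were 70 to 340 bp long and all intronic, and lay 547 to 6580 bp from a *scrib-*+*ab* peak. The longest was chr3R:6376800-6377139, at place 315 of 2012 in the list of its arm. Another 2 isolated peaks (223 and 185 bp) lay upstream of the gene. The members of *hth* were thus scattered between peaks of both lists.

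At *bab1*, a BTB gene of distal antenna and leg, all 4 *ab* peaks held were isolated. They were intronic, at chr3L:1087752-1087810 (59 bp), chr3L:1092088-1092155 (68 bp), chr3L:1093709-1093761 (53 bp) and chr3L:1095967-1096277 (311 bp). Their distances to the *scrib-*+*ab* list were 14389, 10044, 8438 and 5922 bp, and the gene held 1 *scrib-*+*ab* peak. The longest stood at place 221 of 1888 on its arm, far above the other 3 (1131, 1379 and 1474). The isolated peak in the panel of *bab2*, its neighbour and paralogue, lay upstream of the promoter region.

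*ct*, a homeobox gene of antenna and sense organs, held 3 of 5 (178, 95 and 82 bp, intronic), with 2 more outside the drawn gene. *Antp*, the Hox gene of the thorax, held 2 of 5 (155 and 39 bp, intronic). Both *ab* peaks of *al*, a homeobox gene of the arista, were isolated, at chr2L:379924-380062 (139 bp) and chr2L:381598-381784 (187 bp), at 12591 and 14265 bp from the *scrib-*+*ab* list. *ss*, which gives antennal identity, held 2 of 3, at chr3R:12220981-12221088 (108 bp) and chr3R:12221160-12221253 (94 bp), 71 bp apart.

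*danr*, a gene of the distal antenna, had a single isolated peak in its promoter region, chr3R:20963375-20963507 (133 bp), at 42651 bp from the *scrib-*+*ab* list, the farthest of all peaks held by the panel genes. *toe*, a Pax gene of the eye, had 1 in its promoter region (58 bp) at 11249 bp. *Optix*, a Six-family gene of the eye, had its only *ab* peak isolated (147 bp, intronic), and the Hox gene *lab* held 1 of 6 (162 bp, intronic). The panels of *bowl* and *noc* had an isolated peak outside the gene, and those of *da*, *dac*, *dan*, *drm*, *elB*, *eya*, *eyg*, *odd* and *salm* had none.

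Of 10 genes of growth and survival 3 held 5 isolated peaks, and 13.7% of the *ab* peaks in these panels were isolated (5.70 to 26.3%). *W*, also known as *hid*, promotes apoptosis and *th*, also known as *Diap1*, blocks it. *W* held 2 of 4 *ab* peaks, an intronic pair of 172 and 115 bp, 100 bp apart, at chr3L:18168105-18168276 and chr3L:18168377-18168491. *th* held 2 of 8 (131 bp intronic and 73 bp in the promoter region of an internal start site), at 663 and 536 bp from a *scrib-*+*ab* peak. The cell cycle kinase gene *cdc2c* had a single *ab* peak at its start site, chr3R:16561290-16561413 (124 bp), at 21447 bp from the *scrib-*+*ab* list. The panel of *ft* had an isolated peak outside the gene, those of *Buffy*, *Cdk4*, *dm*, *ex* and *wts* had none, and none of the 3 genes of migration and adhesion (*Mmp1*, *Pax* and *scaf*) had one.

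The place of 3 of the isolated peaks in the panels, at *Eip75B*, *hth* and *ImpE1*, would change with a shift of 1 pixel in the drawn model. Among 155 genes that could be placed by their array probes, 45 had an isolated peak in their span, and 7 had 3 or more, namely *jing*, *Eip75B*, *Lim1*, *caps*, *CG34379*, *br* and *dsx*. Over the 155 spans 22.4% of *ab* peaks were isolated (87 of 388, 18.4 to 26.9%). Some of the 7 are long genes with many *ab* peaks, such as *jing* with 12 isolated of 26 in 116630 bp and *Eip75B* with 6 of 27 in 107637 bp.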

How the data were processed

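Members, gene lists and comparisons were chosen with earlier results of these data known. By the study's methods, reads were aligned to dm3 (BDGP Release 5) with Bowtie, and PeakSeq called peaks in each library against its normalised input (READLENGTH 40, MAXGAP 40, MINFDR 0.01, PVALTHRESH 0.0001). The authors deposited 1 peak list for each genotype with a constant score of 1. The lists hold no reads, so filtering and calling could not be varied, and the depth of the libraries, nearly equal in the paper's text, was not used. Files of the input libraries were not used here.

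Starts were converted to count from 1. Gaps were measured between edges. No test across peaks was made. The genes named were all panel genes that hold an isolated peak, by group. The peaks named were the 5 longest, the first in the deposited order on each arm and the 5 farthest from the *scrib-*+*ab* list, and the runs were the 3 with the most members, ties going to the shorter span, with the other runs tied at 7 members added after their values were seen. Gene models were read from the browser panels of the study (median 17.5 bp per pixel, largest 128), without their tracks, and parts of genes beyond a panel were not read. At some genes a drawn start lies at the panel edge and was taken to lie there. Other genes were placed by their probe set alignments, by name only. One panel gene is in the counts but is not reported here. No genome of dm3 was used, so no sequences are shown. The rule was tested on simulated data. Python 3.11.15, NumPy 2.4.6, SciPy 1.17.1 and Matplotlib 3.10.9 were used.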

Additional observations from a re-analysis of the deposited data

How the results depend on the processing

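Across 9 results, 11 alternatives and 2 added after seeing the data gave 69 values, of which 38 stayed within the interval of the main value (or within 1.5 times a count) and 31 did not. The values that moved came most often from using the longer 50% of either list (6 each) and from overlap alone as the criterion (5). With overlap alone as the criterion, 3613 *ab* peaks (40.7% of the list) were isolated, with a median gap of 436 bp to the next *ab* peak, 59.95% in runs and 48 panel genes. With a gap limit of 1000 bp the share was 18.2%, the median gap 2256.5 bp and the share in runs 43.1%. With the longer 50% of the *scrib-*+*ab* list used for the exclusion, 3579 peaks (40.3%) were isolated, with a median length of 112 bp, a gap of 870 bp, 60.3% in runs and 21.5% of them on 3R, against 19.2%. With the longer 50% of the *ab* list eligible, 597 peaks (13.5% of that list) were isolated, with a median length of 208 bp, 18.6% in runs, 18.8% on X against 21.2%, and 16 panel genes. A minimum length of 40 bp gave 21.7% and a median of 110 bp. Joining *ab* peaks within 500 bp gave 27.0%, a median of 114 bp, a gap of 3537 bp and 24.5% in runs. One added alternative left *scrib-*+*ab* peaks under 40 bp out of the exclusion and gave 28.5%, a gap of 1175 bp and 51.3% in runs. The other left out the panel of *Blimp-1*, as given above. Runs at gaps of 2000 and 10000 bp held 36.8% and 56.7%. Beyond what each setting does by construction, the cause was not tested. No paired analysis was possible because each genotype had 1 library and no result comes from a test. The lists hold no reads, so what depth limits could not be measured.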
